A study of Mus musculus with 18 samples.

Results

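Alanine tRNAs carry alanine to the ribosome, and 12 of their genes held a measured 5-methylcytosine (m5C) site in the small RNA of mouse testis. The set comprises every site of the small RNA table whose gene name begins with tRNA-Ala, which gave 13 sites of the 192 in that table, or 13 of its 139 cytosolic tRNA sites. By anticodon, 3 sites in 3 genes read AGC, 6 sites in 5 genes read CGC and 4 sites in 4 genes read TGC. Adult mice of 2 genotypes, wild type (WT) and Nsun7 knockout, provided the testis RNA, with 3 small RNA libraries of each genotype. The study addressed whether NSUN7, a member of the NSUN family, which includes RNA m5C methyltransferases, affects m5C. The labels give no strain, allele or treatment beyond these genotypes.

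In bisulfite sequencing, an unmethylated cytosine is converted and read as T, whereas m5C is still read as C. The level of a site was therefore the percentage of its reads showing C, and its coverage was the number of reads over it. A cytosine that escaped conversion would also be read as C, and the conversion rate was not measured here. In mammalian tRNA most cytosolic m5C is placed by NSUN2, mainly in the variable loop near its junction with the T arm, and DNMT2 (Trdmt1) methylates the anticodon loop of a few tRNAs. These marks are known to protect tRNAs from cleavage and to help them keep their fold.

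The gene names follow a scheme in which the anticodon is followed by an isodecoder number and a copy number. Genes with the same isodecoder number encode the same mature tRNA, and isoacceptors are tRNAs that carry the same amino acid with different anticodons. In the files' GRCm39 coordinates, 5 of the 12 genes lay within 31634 bases of chromosome 13 and 4 lay within 232763 bases of the X chromosome. Chromosomes 2, 4 and 5 held 1 gene each. RefSeq names 33 cytosolic alanine tRNA genes in its GRCm38.p6 annotation, namely 13 with anticodon AGC, 9 with CGC and 11 with TGC, so the listed genes were a minority of them. The table names each site by its tRNA gene and gives no position within the tRNA.

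Alanine sites held a small part of the coverage over the listed m5C sites, which is not a share of all reads in the libraries. Their summed coverage was 11012 to 13785 reads in each library, which was 0.223% to 0.274% of the coverage summed over the table (4674265 to 5096438). The labels do not state that the libraries of a genotype came from separate animals, so the p-values measure only the spread between libraries, which may be technical. The site tables hold no expression level for Nsun7, so the knockout could not be checked in them. In the mRNA site table, 3 of 10 testis germ cell marker genes had a listed site (Adam2, Piwil1 and D1Pas1), as did 1 of 4 Leydig cell markers (Insl3) and 1 of 4 Sertoli cell markers (Amhr2). None of 25 genes for m5C enzymes, m5C readers and alanine tRNA synthesis or processing, among them Nsun2, Trdmt1, Aars1 and Nsun7, had one. These lists were chosen with earlier results of these data known, so the counts do not test which cells were present. A gene without a listed site may still be expressed.

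Most alanine sites were methylated in a large majority of reads, with a median level of 86.8% over the 13 sites and a range of site means from 46.2% to 96.1%. The highest was tRNA-Ala-TGC-1-1 at chr13:21425162, which also had the deepest coverage, 5110 to 7446 reads. Its level was 96.0%, 96.0% and 96.3% in the WT libraries and 96.5%, 95.7% and 96.0% in the knockout libraries. These 6 values lay within 1 percentage point of each other, and the SD over them, 0.282 points, was close to the 0.248 points that counting error alone gives. In WT replicate 1, for example, 4906 of 5110 reads showed C, with an exact 95% binomial interval of 95.4% to 96.5% that covers counting error only.

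At the other end stood tRNA-Ala-TGC-6-1 at chrX:135491161, with the same anticodon. Its level was 41.9%, 61.3% and 30.8% in the WT libraries and 41.4%, 41.7% and 60.0% in the knockout libraries. The values scattered widely in both genotypes. Coverage was only 10 to 31 reads, so that the knockout replicate 3 value rested on 6 of 10 reads and had an interval of 26.2% to 87.8%. The site nevertheless lay below each of the other 12 alanine sites in every library.

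**Figure D1:**
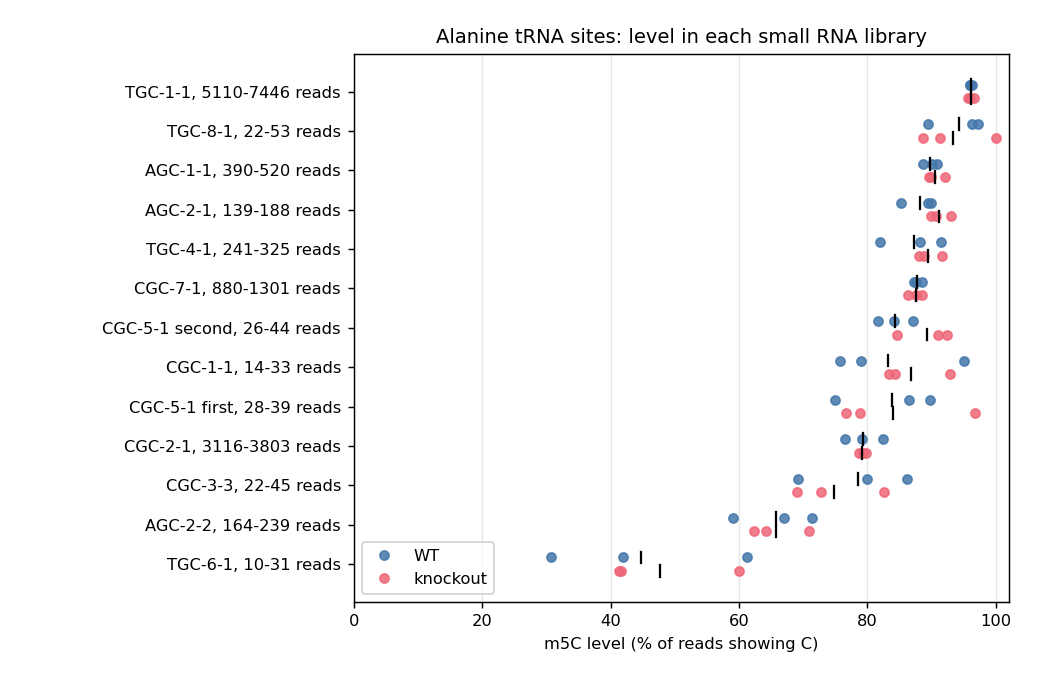
The m5C level in percent (horizontal axis) of each alanine tRNA site, ordered by mean level, in the 3 WT (blue) and 3 knockout (red) libraries, with black lines at the genotype means and the coverage range beside each name. The points of TGC-1-1, with at least 5110 reads, form a tight group, whereas tRNA-Ala-TGC-6-1, with 10 to 31 reads, runs from 30.8% to 61.3%.

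Among the AGC genes, which encode the tRNA whose first anticodon base is deaminated to inosine by the ADAT2 and ADAT3 enzymes, 1 site stood apart from the other two. tRNA-Ala-AGC-1-1 at chr13:21426787 had 88.6%, 90.8% and 90.0% in WT and 89.6%, 89.9% and 92.1% in the knockout, at 390 to 520 reads. tRNA-Ala-AGC-2-1 at chr13:21406803 had 85.2%, 89.9% and 89.4% in WT and 93.0%, 89.9% and 90.6% in the knockout, at 139 to 188 reads. The pair was not separated by its spread, since AGC-1-1 exceeded AGC-2-1 by a mean of only 0.457 points and the difference ran from -3.45 to 3.40 across libraries. tRNA-Ala-AGC-2-2 at chr13:21418262 had 59.0%, 66.9% and 71.3% in WT and 64.1%, 70.8% and 62.3% in the knockout, at 164 to 239 reads.

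The low AGC-2-2 site belongs to a gene of the same isodecoder as AGC-2-1. The level of AGC-2-1 was higher in 6 of 6 libraries, by 18.1 to 28.9 points (mean 23.9 ± 4.64, SD, n = 6). The exact two-sided sign-flip test gave p = 0.03125, the smallest that 6 libraries allow. Because copies of an isodecoder share the mature sequence, a read of the mature tRNA alone cannot name its gene, and the assignment of such reads is not described in the labels or file headers. The tables do not show whether these sites lie at the same position of the tRNA.

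Such gaps between copies were also present in other tRNA families. Of 12 pairs of copies in 6 other isodecoders, each copy with 1 listed site, the median difference was 37.6 points (range 1.44 to 75.9). In 10 of these 12 pairs the difference was larger than that of the alanine pair, and 11 were ordered the same way in all 6 libraries. Some had few reads, down to 8 in a library for tRNA-Ile-AAT-1-3, against at least 139 in the alanine pair. Deeper pairs went both ways, with 31.8 points between the tRNA-Leu-CAG-2 copies (at least 396 reads) and 5.07 between tRNA-Lys-CTT-3-1 and tRNA-Lys-CTT-3-4 (at least 609). Their positions within the tRNA are not given either. Over all 133 pairs of sites between copies in 12 other isodecoders, which include copies with several listed sites, the median was 17.5 points and 48 were larger than the alanine pair. They set each listed site of a copy against each listed site of another copy, so different positions within the tRNA can be compared. For example, site 170929977 of tRNA-Asp-GTC-1-5 exceeded sites 22095520 and 22095529 of tRNA-Asp-GTC-1-11 by 0.346 and 42.1 points. The median and the count of 48 therefore do not measure gaps between copies alone. These pairs also share genes and are not independent.

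The CGC genes spanned a narrower range of levels. tRNA-Ala-CGC-7-1 at chrX:135470559 had 87.6%, 88.4% and 87.3% in WT and 87.6%, 86.4% and 88.5% in the knockout, at 880 to 1301 reads. tRNA-Ala-CGC-2-1 at chr2:57072137 had 76.5%, 82.4% and 79.1% in WT and 79.7%, 78.7% and 79.2% in the knockout, at 3116 to 3803 reads. Both were deeply read, and CGC-7-1 was higher than CGC-2-1 in every library.

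The CGC-2-1 site varied between libraries more than its depth accounts for. Its SD over the 6 libraries was 1.89 points where counting error gives 0.695, and its dispersion relative to binomial sampling was 10.2, against a median of 1.30 over the alanine sites and 1.40 over the other cytosolic tRNA sites. For a given spread between libraries this dispersion grows with coverage. CGC-2-1 had a mean of 3425 reads, whereas the median coverage was 152 reads over the alanine sites and 413 over the others. The deeper TGC-1-1 site had a dispersion of 1.70. A dispersion above 10 was also found at 15 of the 126 other cytosolic tRNA sites. The scatter lay among the WT libraries, whose SD was 2.94 points, compared with 0.544 in the knockout. The exact intervals of WT replicate 1 (75.1% to 77.9%) and WT replicate 2 (81.2% to 83.6%) did not meet.

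The remaining CGC sites had few reads. tRNA-Ala-CGC-1-1 at chr13:21438437 had 95.0%, 75.8% and 78.9% in WT and 83.3%, 92.9% and 84.2% in the knockout, at 14 to 33 reads. tRNA-Ala-CGC-3-3 at chrX:135302664 had 69.2%, 80.0% and 86.2% in WT and 69.0%, 72.7% and 82.5% in the knockout, at 22 to 45 reads. In both genes the genotypes overlapped, and the highest and the lowest WT library lay further apart than the genotype means.

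tRNA-Ala-CGC-5-1 on chromosome 4 was the only alanine gene with more than 1 listed site, at adjacent bases 131852617 and 131852618. Of the other cytosolic tRNA genes, 38 of 71 had 2 or more. The first site had 89.7%, 86.5% and 75.0% in WT and 96.7%, 76.7% and 78.8% in the knockout, at 28 to 39 reads. The second had 81.6%, 84.1% and 87.1% in WT and 92.3%, 90.9% and 84.6% in the knockout, at 26 to 44 reads.

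Neither base of the pair was regularly the higher one. The second minus the first was 2.87 ± 9.22 points (SD, n = 6), from -8.16 to 14.2, and was positive in 3 of 6 libraries. Among 35 pairs of sites 1 base apart in 29 other cytosolic tRNA genes, 27 were ordered in one direction in all 6 libraries, and the median size of the difference was 7.71 points (0.415 to 73.3). In 10 of the 35 the difference was smaller than in CGC-5-1. Many of these pairs were read far more deeply than CGC-5-1. Every pair without a constant order had a mean coverage of at most 84.7 reads at each site, and all deeper pairs were ordered. Some shallow pairs were ordered too, such as that of tRNA-His-GTG-3-1, with mean coverages of 20.2 and 21.8 reads.

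The other TGC genes had high levels. tRNA-Ala-TGC-8-1 at chrX:135258398 had 97.1%, 96.2% and 89.5% in WT and 88.6%, 100% and 91.3% in the knockout, at 22 to 53 reads. tRNA-Ala-TGC-4-1 at chr5:125486583 had 81.9%, 91.4% and 88.2% in WT and 88.8%, 91.5% and 88.0% in the knockout, at 241 to 325 reads. At TGC-4-1 the genotypes overlapped, with WT replicate 1 the lowest and knockout replicate 2 the highest of all 6.

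From highest to lowest mean level, the order of the 13 sites was TGC-1-1, TGC-8-1, AGC-1-1, AGC-2-1, TGC-4-1, CGC-7-1, the second CGC-5-1 site, CGC-1-1, the first CGC-5-1 site, CGC-2-1, CGC-3-3, AGC-2-2 and TGC-6-1. Only the last 2 of the 12 steps between neighbours held in every library. CGC-3-3 exceeded AGC-2-2 by 10.9 points (1.89 to 20.2), and AGC-2-2 exceeded TGC-6-1 by 19.6 points (2.28 to 40.6). The other 10 neighbours changed places in at least 1 library, with mean differences of 0.457 to 4.61 points.

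Over all 78 pairs of alanine sites, 46 had the same order in all 6 libraries. Each of these had an exact two-sided sign-flip p = 0.03125, the smallest possible with 6 libraries. With Benjamini-Hochberg adjustment over the 78 pairs the smallest adjusted p of these sign-flip permutation tests was 0.0530, so 0 pairs passed 0.05 after adjustment. All 46 ordered pairs tied at this value, which follows from their number and not from the size of any difference. The adjusted test therefore cannot tell pairs with large gaps from pairs with small ones. Of the 21 pairs in which both sites had at least 50 reads in every library, 16 were ordered.

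**Figure D2:**
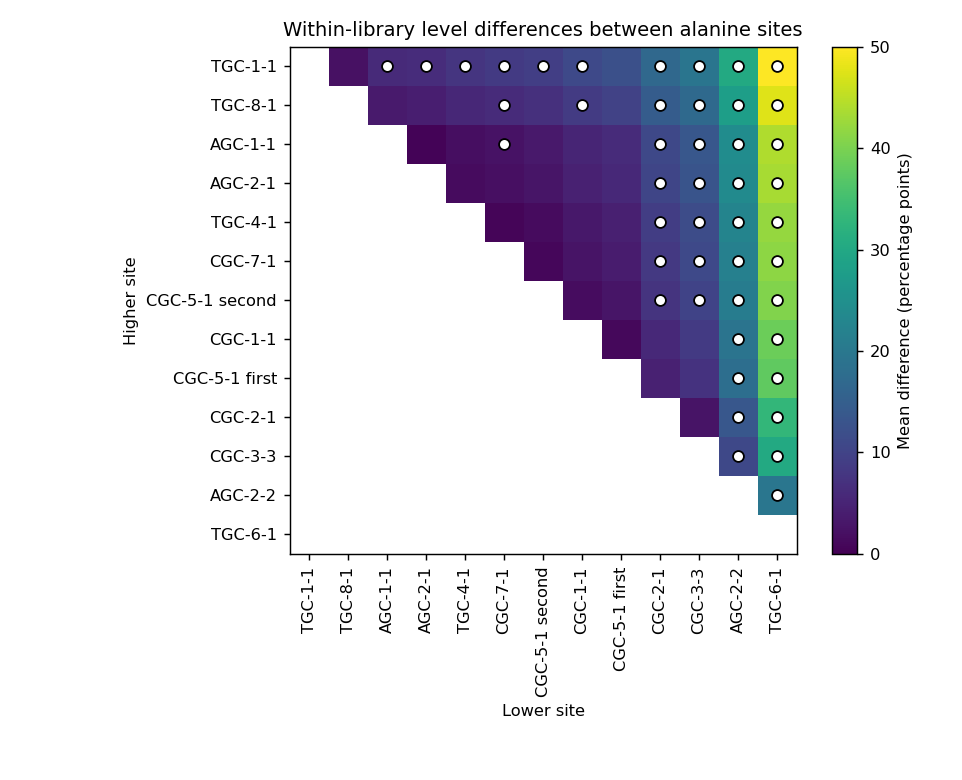
Mean within-library difference in m5C level, in percentage points (colour), between each higher site (rows) and lower site (columns) of the alanine tRNAs in order of mean level; a white dot marks the pairs with the same order in all 6 libraries. The dots fill the 2 right-hand columns, AGC-2-2 and TGC-6-1, and are sparse near the diagonal, where neighbours in the order lie.

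The ranges of site level of the 3 anticodons overlapped. Of 24 pairs of sites with the same anticodon 10 were ordered in all libraries, with a median difference of 6.50 points. Of 54 pairs with different anticodons 36 were ordered, with a median difference of 10.9 points. Within an anticodon, 2 of 3 AGC pairs, 4 of 15 CGC pairs and 4 of 6 TGC pairs were ordered, and the TGC sites held both the highest and the lowest mean level. The lower share among same-anticodon pairs thus lay in the CGC pairs, and most CGC sites had fewer than 50 reads in some library. Where both sites had at least 50 reads in every library, same-anticodon pairs were not ordered less often than the others. The part of depth in this contrast was not tested.

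With every site given the same weight, the 3 isoacceptors had nearly the same mean level. Over 6 libraries the AGC mean was 81.9%, the CGC mean 83.2% and the TGC mean 81.1%. With reads pooled over the sites of an anticodon, TGC stood highest in 6 of 6 libraries at a mean of 95.5%, followed by AGC at 84.0% and CGC at 81.4%. These are descriptions of lists of 3 to 6 sites, without a test.

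Single genes set these values. TGC-1-1 alone took 45.6% to 54.0% of alanine coverage in each library, and CGC-2-1 took 27.4% to 32.8%. Without TGC-1-1 the pooled TGC level was 85.6%, and without CGC-2-1 the pooled CGC level was 87.1%. Without TGC-6-1 the site mean of TGC was 92.7%, and without AGC-2-2 that of AGC was 89.9%. These leave-out values were chosen after seeing the data.

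**Figure D3:**
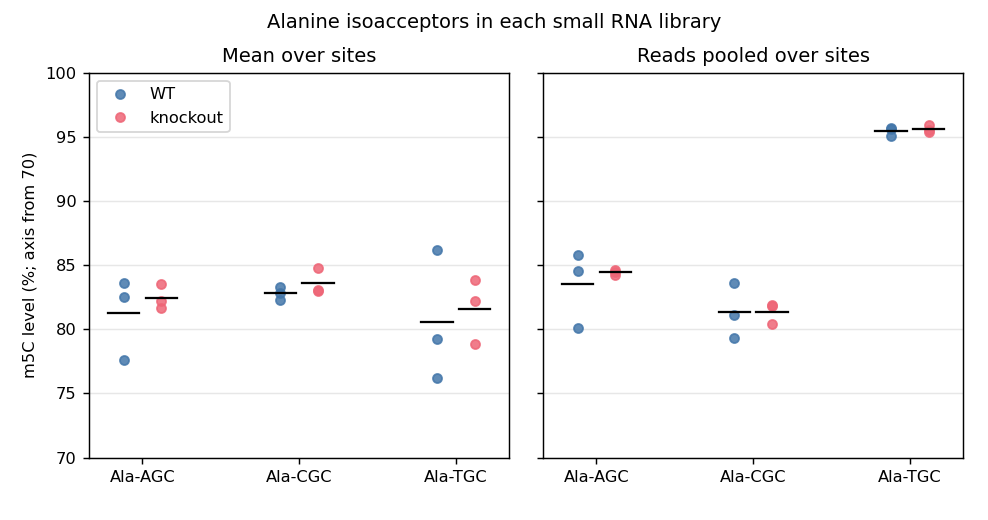
The m5C level in percent (vertical axis, from 70) of the 3 alanine isoacceptors in each WT (blue) and knockout (red) library, as the mean over sites and with reads pooled over sites; black lines are genotype means. The site means overlap among the isoacceptors, whereas the pooled TGC values lie above 95% in all 6 libraries.

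Set among the other tRNAs, the alanine sites lay on the high side. Their mean exceeded the mean of the other 126 cytosolic tRNA sites by 8.74 to 11.7 points in each library, and their median level of 86.8% compared with 77.7% for those sites. Among 17 tRNA families the alanine mean of 82.2% ranked 4, after proline (93.2%), glutamate (86.5%) and threonine (86.0%). By the median over sites, lysine (97.0%) and serine (90.2%) also stood above alanine. The families held 1 to 27 sites. Below 70% lay 2 of 13 alanine sites and 50 of 126 others, whereas at least 90% was reached by 3 of 13 and 39 of 126.

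Depth was lower, with a median coverage of 152 reads per alanine site against 413 for the other cytosolic tRNA sites. At least 50 reads in every library were present at 7 of 13 alanine sites and 87 of 126 others. Across the 13 sites, level correlated with the log10 of coverage with Pearson's r = 0.333 and Spearman's rho = 0.456, and across the 126 others with r = 0.358 and rho = 0.386. Sites share libraries and are not independent replicates, so no p is given.

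**Figure D4:**
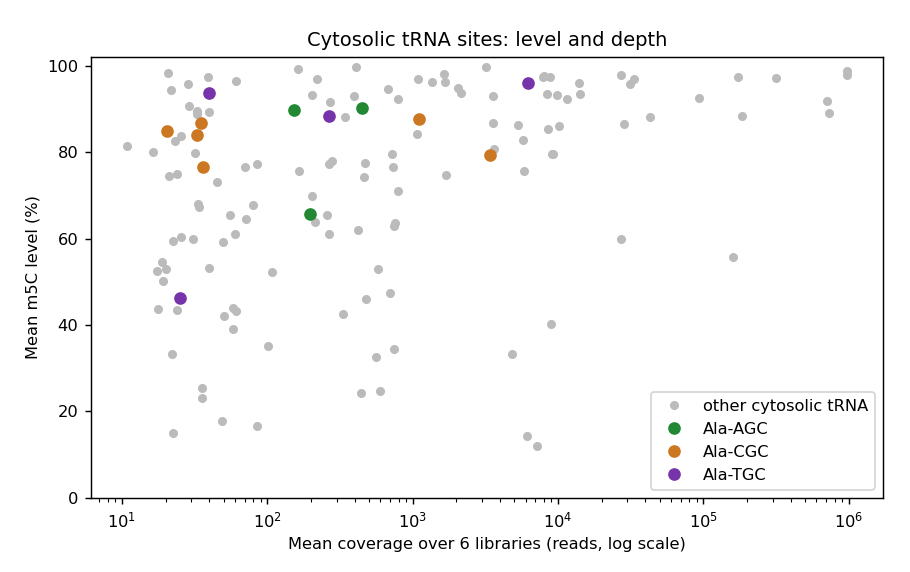
Mean m5C level in percent against mean coverage over 6 libraries (log scale) for the 139 cytosolic tRNA sites, with alanine sites coloured by anticodon and the others in grey. Of the alanine sites, 11 of 13 lie at or above 70%, at shallow and deep coverage alike.

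The 3 sites outside the family whose levels were nearest to the alanine mean in each library were chosen by the root mean square difference over the 6 libraries, among 160 sites. They were tRNA-Gly-GCC-2-8 at chr13:23701419 (1.76 points, mean level 82.8%), tRNA-Glu-CTC-1-4 at chr1:170930660 (1.80 points, 80.8%) and tRNA-Thr-TGT-3-1 at chr11:48744493 (2.29 points, 84.1%). All 3 read other amino acids.

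Loss of Nsun7 was not accompanied by a detectable change at any alanine site. The mean over the 13 sites was 80.7%, 83.8% and 80.7% in the WT libraries and 82.4%, 82.9% and 82.9% in the knockout libraries. The knockout values lay within the WT range, and the difference of means was 0.980 points, with the 9 differences between single libraries running from -1.46 to 2.22. WT replicate 1 had the lowest level of the 6 libraries at 6 of the 13 sites, and it also had the lowest mean over the other cytosolic tRNA sites, 71.0% against 72.0% to 72.3% in the other 5 libraries. The part of that library in the alanine values beyond the leave-out values given was not tested.

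In the quasi-binomial model over all small RNA sites, 0 of the 13 alanine sites passed an adjusted p of 0.05, and 0 had an unadjusted p below 0.05. The lowest unadjusted alanine p in this model was 0.164, and the Benjamini-Hochberg adjusted p-values of the model ran from 0.877 to 0.992. Among all small RNA sites, 184 were tested, 0% were called and 7 had an unadjusted p below 0.05. limma on the levels also called 0 of 187 sites, again with 7 at an unadjusted p below 0.05.

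The directions were mixed. The knockout mean was higher at 7 alanine sites and lower at 6, with a median difference of 0.297 points, and the median over all 192 sites was 0.000918 points. The median size of the difference was 0.967 points at alanine sites and 1.51 points over all sites.

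Only tRNA-Ala-AGC-2-1 had genotypes that did not overlap. The WT libraries averaged 88.2 ± 2.60% and the knockout libraries 91.2 ± 1.61% (SD, n = 3 each), a difference of 3.02 points, with a gap between the nearest libraries of 0.0344 points. The exact two-sided permutation test gave p = 0.10, the smallest that 3 against 3 libraries allow, and the adjusted p of the quasi-binomial model was 0.877. One site of 13 compares with 11.5% of all 192 sites whose genotypes did not overlap.

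At its copy AGC-2-2 the means were 65.8 ± 6.25% in WT and 65.8 ± 4.50% in the knockout. Their difference was -0.0123 points, with a 95% interval from limma of -10.7 to 10.6. At AGC-1-1 the means were 89.8 ± 1.11% and 90.5 ± 1.36%, and the interval ran from -1.84 to 3.26 points.

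Of the 3 sites with the most reads, TGC-1-1 had the narrowest interval and CGC-2-1 the widest. At TGC-1-1 both genotypes had a mean of 96.1% (SD 0.189 in WT and 0.403 in the knockout), and the interval of the difference ran from -1.05 to 0.987 points. At CGC-7-1 the means were 87.8 ± 0.614% and 87.5 ± 1.08%, with an interval of -2.15 to 1.64. At CGC-2-1 they were 79.4 ± 2.94% and 79.2 ± 0.544%, with an interval of -4.34 to 4.05.

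TGC-4-1 had means of 87.2 ± 4.84% and 89.4 ± 1.87%, with an interval of -4.93 to 9.44 points. Without WT replicate 1 its difference went from 2.25 to -0.388 points. Its genotypes overlapped, as those of all alanine sites but AGC-2-1 did.

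At the 6 sites with fewer than 50 reads in some library the differences were larger and the limits wider. They ran from -3.72 points at CGC-3-3 to 5.02 points at the second CGC-5-1 site, with interval half-widths of 6.85 to 25.9 points. At the 7 deeper sites the differences ran from -0.259 to 3.02 points, and the half-widths from 1.02 to 10.6. The median size of the difference was 3.29 points in the shallow sites and 0.259 in the deep ones. A loss of 50% of the WT level lay outside the interval at 12 of 13 sites, the exception being TGC-6-1, where the interval ran from -22.8 to 28.9 points around a WT mean of 44.7%.

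**Figure D5:**
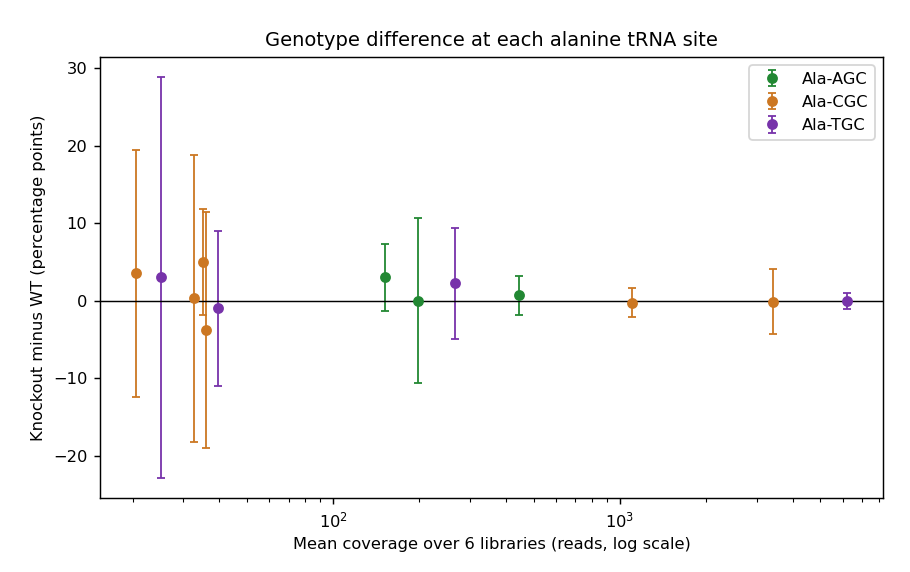
Knockout minus WT difference in m5C level, in percentage points, with the 95% interval from limma, against mean coverage over 6 libraries (log scale) for each alanine tRNA site, coloured by anticodon. Every interval includes 0, and the half-width shrinks to 1.02 points at TGC-1-1, the site with the most reads.

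By anticodon, the genotypes overlapped for all 3 isoacceptors. For AGC the WT mean was 81.2 ± 3.20% and the knockout mean 82.5 ± 0.968%, for CGC they were 82.8 ± 0.507% and 83.6 ± 1.03%, and for TGC 80.6 ± 5.14% and 81.6 ± 2.55% (SD, n = 3 each). The 9 differences between single libraries ran from -1.93 to 5.96 points for AGC, from -0.303 to 2.52 for CGC and from -7.40 to 7.61 for TGC. All 3 ranges included 0.

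The amount of each alanine tRNA read was also compared. In the edgeR quasi-likelihood test of coverage, 0 of 13 alanine sites passed (0% of all 192 sites), 0 had an unadjusted p below 0.05, and the adjusted p-values ran from 0.767 to 0.986. Log2 fold changes in the knockout ran from -0.35 at TGC-6-1, covered by 31, 31 and 26 reads in the WT libraries and 29, 24 and 10 in the knockout libraries, to 0.20 at CGC-7-1, with 1080 ± 111 and 1122 ± 217 reads. The deepest site, TGC-1-1, had 6266 ± 1168 and 6135 ± 624 reads.

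Over the whole table, 13 sites had an unadjusted p below 0.05 for coverage in edgeR, and DESeq2 called 0 sites, with 6 at an unadjusted p below 0.05. The sign of small coverage differences depended on the scaling, with 7 alanine sites higher and 6 lower after TMM normalization. With DESeq2's size factors 4 were higher and 9 lower, and with scaling to the summed coverage alone 1 was higher and 12 lower. The median log2 fold change over all sites moved in the same comparison from 0.04 to -0.03 and -0.08.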

How the data were processed

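Per the labels' protocols, testis RNA was extracted with TRIzol, small RNA was separated on columns, converted with an ultrafast bisulfite reagent and made into libraries with a small RNA kit. The submitters' processing notes name build GRCm39 and the tools Bowtie2, HISAT2, SAMtools, cutadapt and Trimmomatic. Not given in the sources used here are their roles, the rule by which sites were listed and the handling of reads that match several tRNA copies. Per the file headers, the small RNA table gives coverage and C reads as deposited counts, without normalization, and the level as a fraction that equals C count over coverage to within 0.005. The mRNA table, also of deposited counts, was used only to look up listed genes. The large RNA table was not used here. No column was left unmapped (0).

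Levels were recomputed from the counts as percentages. Each site was fitted with a quasi-binomial logistic model (coverage minimum of 10 in 2 or more libraries of each genotype, own dispersion, F test, two-sided), adjusted over all sites by Benjamini-Hochberg with a threshold of 0.05. Intervals of differences came from limma 3.58.1, and coverage was tested with edgeR 4.0.16 (TMM, filterByExpr, quasi-likelihood) and, as an alternative, DESeq2 1.42.0, in R 4.3.3. Permutation tests were exact, and the binomial intervals and correlations used scipy 1.17.1. Binomial intervals are exact (Clopper-Pearson, 95%) and treat reads as independent molecules, which reads without molecular identifiers need not be. The scripts were tested on simulated data.

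Named were all alanine sites, the 3 sites most like their mean, and any mRNA site of the 25 enzyme genes. The members and lists were chosen with earlier results of these data known. Alternatives were the dispersion, test, coverage minimum (5 and 50), scaling, pooling of reads, a replicate block and each library left out. Libraries with the same replicate number were not treated as paired, by a rule that all 3 correlations of their deviations from the genotype means pass 0.1. These were 0.0677, 0.102 and 0.0434 for levels and 0.161, 0.0873 and 0.128 for coverage. Libraries with different numbers correlated less in every case, by -0.105 to 0.0316 for levels and -0.191 to 0.0525 for coverage. A pairing is thus not excluded, and the replicate block is given as an alternative.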

Additional observations from a re-analysis of the deposited data

How the results depend on the processing

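The count of 0 sites called for level held under moderated dispersions, limma, coverage minimums of 5 and 50, the replicate block (0 of 179 sites) and each library left out, whereas Fisher's exact test on pooled reads, which ignores the spread between libraries, called 24 sites (0 of them alanine). Without knockout replicate 3, 1 alanine site had an unadjusted quasi-binomial p below 0.05 (0.0333), where the lowest adjusted alanine p was 0.894. No other library left out gave such an alanine site. For coverage, the replicate block called 6 sites and leaving out 1 library gave 0 to 2 (2 without WT replicate 3), none of them alanine. With at least 50 reads in every library, the CGC difference went from 0.793 to -0.204 points and 16 pairs of sites remained ordered, because fewer sites entered. With each library left out, the alanine difference ran from 0.459 (without WT replicate 3) to 2.02 points (without WT replicate 2), AGC from -0.585 (without WT replicate 1) to 2.42, CGC from 0.198 (without knockout replicate 1) to 1.10 and TGC from -1.11 (without WT replicate 3) to 3.90. Only AGC-2-1 and the second CGC-5-1 site kept the sign of their difference with every library left out. The others ran from -0.252 to 0.142 points at TGC-1-1, -1.56 to 1.38 at CGC-2-1, -0.765 to 0.310 at CGC-7-1, -0.0691 to 1.20 at AGC-1-1, -0.388 to 4.36 at TGC-4-1, -3.39 to 2.78 at AGC-2-2, -6.02 to 3.98 at the first CGC-5-1 site, -8.35 to 0.143 at CGC-3-3, -4.31 to 1.37 at TGC-8-1, -3.93 to 11.3 at TGC-6-1 and -0.173 to 9.45 at CGC-1-1. With reads pooled within a genotype the sign turned at AGC-2-2 (0.587), the first CGC-5-1 site (-0.744) and TGC-6-1 (-1.01); the cause was not tested. Depth limits the 6 sites with fewer than 50 reads, and 3 against 3 libraries cannot give an exact permutation p below 0.10.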
